A study of Mus musculus with 18 samples.

Results

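Light polysomes are the mRNAs that sediment with only a few ribosomes, and the comparison described here is that of cells with a hairpin against Dap5 and control cells in this fraction. It rests on 6 of the 18 libraries of the study, taken by their sample titles: 3 NSi and 3 shDap5 libraries of light polysome RNA, numbered 1 to 3 in each arm. All were made from 4T1, an established BALB/c mouse mammary carcinoma line used to study triple-negative breast cancer. NSi cells expressed a non-silencing hairpin and shDap5 cells one against Dap5. Both arms received 2 µg/ml doxycycline for 6 days before lysates were separated on sucrose gradients, so the inducer is shared by the groups compared. The remaining 12 libraries hold whole lysate (input) and heavy polysome RNA of the same arms, 3 each. The labels do not say whether an arm is 1 clone or a pool, nor whether numbered libraries came from separate cultures. Replicate spread, and with it each p-value, may thus be partly technical. Uninduced cells were not analysed here, and a difference that the arms carried before induction cannot be told apart from an effect of the hairpin. A polysome library also gives only the makeup of the fraction: a gene's share can differ because the cell holds more or less of its mRNA or because its mRNA loads ribosomes differently.

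An mRNA that is being translated carries several ribosomes at once, and centrifugation through sucrose sorts mRNAs by that load. Most initiation begins when eIF4E binds the 5′ cap and recruits the scaffold eIF4G1, which brings in the helicase eIF4A and, through eIF3, the small ribosomal subunit. DAP5, the product of Eif4g2, resembles the part of eIF4G1 that binds eIF4A and eIF3 but lacks the site for eIF4E. It is known for initiation that does not need that cap-binding protein, on mRNAs of survival, mitosis, differentiation and migration. In breast carcinoma cells such programmes include the shift between an epithelial state, with tight junctions and apical transport, and a mesenchymal one, with vimentin and matricellular proteins.

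The 6 light libraries held 30940897 to 39446351 counts and 18290 to 20030 symbols with at least 1 count. CPM, the library-scaled counts, have a floor of 0.0761 to 0.102 in these libraries, the level of 3 counts that a count of 0 still allows by counting error. CPM are scaled by TMM, a correction for the makeup of each library, unless said otherwise. Libraries of 1 arm correlated with each other at 0.981 to 0.983 on average (log values across genes, which are not independent replicates), and no pair was alike within sampling noise. The first principal component of the light libraries, with 39.6% of the variance, separated the arms, and libraries of the same number deviated together (below, at the count of calls). Markers of an epithelial carcinoma were well represented: the summed level of 14 luminal and mammary carcinoma markers, in CPM of the library total, was 3735 to 4614 in NSi and 5354 to 6883 in shDap5. The progesterone receptor Pgr was at 0 counts in all 6 libraries. Of 11 endothelial markers 8 stayed under 1 CPM in all 6, with sums of 24.1 to 33.6 in NSi and 26.1 to 34.1 in shDap5. Sums of 13 macrophage markers were 51.1 to 71.3 in NSi and 55.5 to 108.6 in shDap5, with 4 at 0 throughout, among them C1qa, C1qb and C1qc. All 9 lymphocyte and all 5 red cell markers lay under 1 CPM. Sums of 10 fibroblast markers, of which 7 lay under 1 CPM, were 19.2 to 24.8 in NSi and 32.9 to 40.8 in shDap5. Adipocyte markers summed to 4.18 to 7.02 CPM in NSi and 1.76 to 2.1 in shDap5. The part of these markers in the results below was not tested.

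Eif4g2 checked the labels. It stood at 1315, 983 and 769 CPM in NSi libraries 1, 2 and 3 and at 429, 311 and 274 CPM in the shDap5 libraries. Every shDap5 library lay under every NSi library, and each shDap5 library kept about the same share of the NSi library of its number, with 33.1% of the NSi level over the means (log2 change -1.60, SE 0.26, edgeR adjusted p = 0.00204). Without any 1 of the 6 libraries the call was kept. The cap-binding partners that DAP5 lacks or shares did not pass the test. Eif4e was at 151, 99.1 and 99.9 CPM in NSi and 119.8, 85.5 and 91.6 in shDap5 (log2 change -0.24, SE 0.22, edgeR adjusted p = 0.673). Eif4g1, the scaffold of cap-dependent initiation, was at 441, 519 and 458 and 429, 372 and 316 CPM (log2 change -0.34, SE 0.24, edgeR adjusted p = 0.529); its arms did not overlap. Eif3d, the eIF3 subunit that can itself bind a cap and is a reported partner of DAP5, was at 245, 251 and 240.4 and 264, 329 and 311 CPM (log2 change 0.30, SE 0.17, edgeR adjusted p = 0.412).

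Of 15072 genes tested, edgeR called 523 on light polysomes at an adjusted p under 0.05, which is 3.47% of the genes. Of these, 276 rose in shDap5 (1.83%) and 247 fell (1.64%), and 351 differed by at least 2-fold. The median over all genes was -0.015 on the log2 scale. Rises and falls differed in abundance: the median gene that rose had 19 CPM over the 6 libraries and the median gene that fell 3.05 CPM, and 67 rises and 149 falls lay under 5 CPM. The median over all genes tested was 22.4 CPM, so the falls, more than the rises, lay apart from the other genes. Median changes were 1.07 for the rises and -1.55 for the falls. Libraries of the arms did not overlap for 2995 genes (19.9% of those tested; 10.2% higher and 9.64% lower in shDap5). Same-numbered NSi and shDap5 light libraries deviated from their group means together (r = 0.555, 0.793 and 0.727 for numbers 1, 2 and 3, across 10308 genes), so the numbers pair them. With the replicate number as a block within each fraction, 2431 genes were called (16.1%), 1301 higher (8.63%) and 1130 lower (7.5%), and 522 of the 523 were among them. In the text "rose" and "fell" mean a call without the block, and results of the block are named as such. Calls said below to be lost with a library left out were lost in fits without the block. Each of these named genes was called with the block and all libraries. Leaving out libraries was not done with the block. Counts of calls in a gene group are to be read beside the shares over all genes. These were 1.83% higher and 1.64% lower without the block, and 8.63% higher and 7.5% lower with it. The count was 218 without NSi 2, 326 without NSi 3, 253 without shDap5 2 and 235 without shDap5 3. It was 386 without NSi 1 and 393 without shDap5 1.

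**Figure D1:**
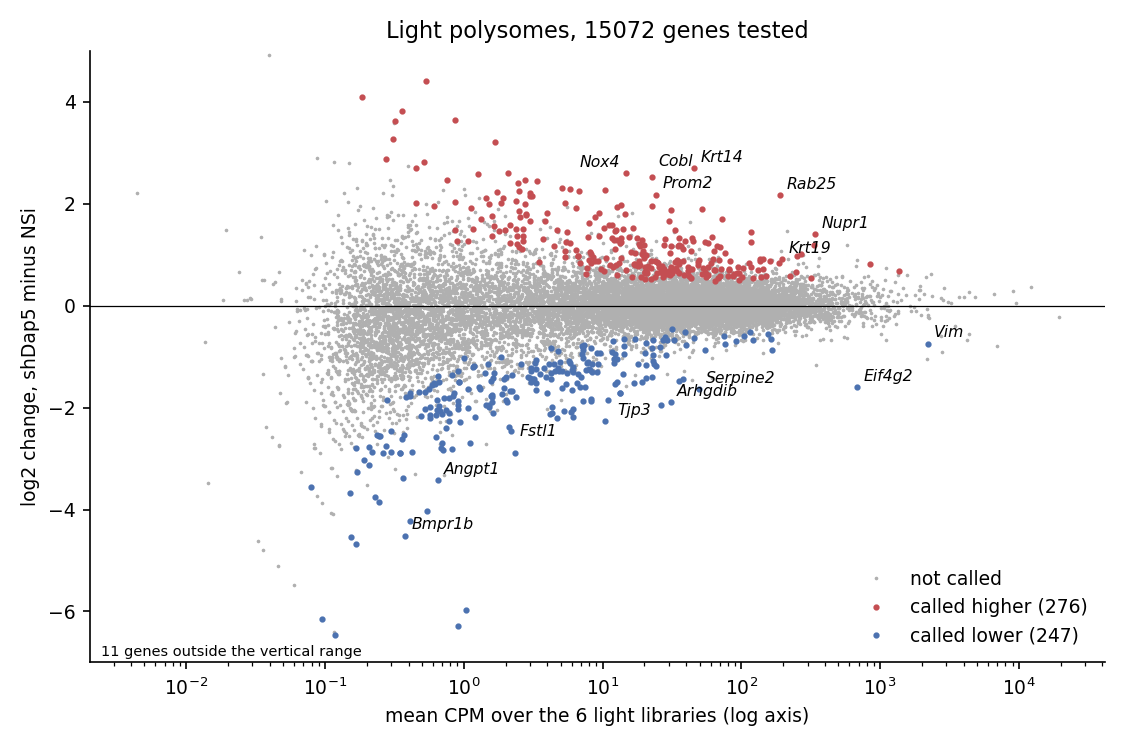
The log2 change in shDap5 against NSi (vertical) is plotted against the mean CPM over the 6 light libraries (horizontal, log axis) for each of the 15072 genes tested, with 276 called higher in red, 247 called lower in blue and 11 genes beyond the vertical range. Called rises lie mostly at intermediate and high levels, with a median of 19 CPM against 22.4 over all genes, while falls reach down to genes under 1 CPM.

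The group with the most rises held genes of apical transport and of epithelial gene control. Of its 26 tested members 11 rose and 0 fell, and the median log2 change was 0.57. This and the other gene groups were chosen with earlier results of these data known. Their counts and ranking thus describe the groups and do not test them. Rab25, a small GTPase of the apical recycling endosome, stood at 78.9, 49.8 and 77.7 CPM in NSi and 297, 303 and 330.2 CPM in shDap5. The lowest shDap5 library was over 3 times the highest NSi library (log2 change 2.17, SE 0.24, edgeR adjusted p = 6.62e-05). Mal, a proteolipid of apical transport vesicles, stood at 31.2, 16.6 and 17.8 CPM in NSi and 88.3, 89 and 67.8 CPM in shDap5, again without overlap (log2 change 1.90, SE 0.22, edgeR adjusted p = 9.55e-05). Cobl, an actin nucleator of the brush border, was at 6.39, 8.01 and 5.72 CPM and 31.5, 50.9 and 33.9 CPM (log2 change 2.53, SE 0.29, edgeR adjusted p = 9.79e-05). NSi libraries of this gene all stayed under 10 CPM. Ap1m2, the medium chain of the epithelial clathrin adaptor AP-1B, was at 11.5, 6.57 and 9.55 CPM and 30.7, 35.7 and 41.5 CPM (log2 change 1.96, SE 0.27, edgeR adjusted p = 0.000583). Its lowest NSi library was number 2, as for Rab25 and Mal. Mal2, a relative of Mal in transcytosis, rose from a mean of 62.8 to 170.1 CPM (log2 change 1.44, SE 0.20, edgeR adjusted p = 0.000643). Esrp2, which directs epithelial splicing, rose from 20.2 to 41.4 CPM (log2 change 1.03, SE 0.14, edgeR adjusted p = 0.000521). None of these 6 calls was lost when 1 library was left out. The count of rises in this group was 7 to 9 with 1 library left out, being 7 without NSi 2 and without shDap5 2. With the replicate block it was 14, and 1 member, the myosin Myo5c, was then called lower.

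Repressors of the Snail and Zeb families bind the E-box CAGGTG in promoters of epithelial genes. The 250 bases before the start are printed for 4 of the apical genes, which rose together, and for Krt14, the keratin with the largest rise, to show where that motif lies. Each is written 5′ to 3′ on the gene's strand and ends at the base before the start, from RefSeq on GRCm38.p6, with CAGGTG on either strand (CAGGTG or CACCTG) in capitals.
Rab25, chr3:88548280-88548529 (-): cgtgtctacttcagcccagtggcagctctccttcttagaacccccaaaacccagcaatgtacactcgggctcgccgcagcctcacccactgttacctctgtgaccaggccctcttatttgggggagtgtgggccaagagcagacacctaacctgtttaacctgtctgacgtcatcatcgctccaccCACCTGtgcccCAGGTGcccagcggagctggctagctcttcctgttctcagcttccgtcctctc
Ap1m2, chr9:21312334-21312583 (-): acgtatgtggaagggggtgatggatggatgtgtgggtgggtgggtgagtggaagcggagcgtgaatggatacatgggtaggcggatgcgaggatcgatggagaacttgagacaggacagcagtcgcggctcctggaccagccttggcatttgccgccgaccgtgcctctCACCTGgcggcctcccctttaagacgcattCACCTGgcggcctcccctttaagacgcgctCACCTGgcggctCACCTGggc
Cobl, chr11:12464961-12465210 (-): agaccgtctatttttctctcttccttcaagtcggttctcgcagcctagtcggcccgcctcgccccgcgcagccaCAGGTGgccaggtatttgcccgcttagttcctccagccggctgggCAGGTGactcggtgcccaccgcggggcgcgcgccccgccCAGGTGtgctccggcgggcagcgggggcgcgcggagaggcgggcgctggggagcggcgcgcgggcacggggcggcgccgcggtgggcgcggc
Mal, chr2:127656696-127656945 (-): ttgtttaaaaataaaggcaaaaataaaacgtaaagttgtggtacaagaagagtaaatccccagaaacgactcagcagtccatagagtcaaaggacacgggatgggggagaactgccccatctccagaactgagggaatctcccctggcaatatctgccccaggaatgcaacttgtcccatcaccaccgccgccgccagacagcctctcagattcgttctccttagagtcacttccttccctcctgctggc
Krt14, chr11:100206031-100206280 (-): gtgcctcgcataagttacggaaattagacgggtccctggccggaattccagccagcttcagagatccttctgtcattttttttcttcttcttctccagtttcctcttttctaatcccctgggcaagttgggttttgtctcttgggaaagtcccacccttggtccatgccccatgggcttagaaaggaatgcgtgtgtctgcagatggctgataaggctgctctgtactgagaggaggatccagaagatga
Rab25 holds 2 E-boxes, beginning 64 and 53 bases before the start, Ap1m2 4, at 81, 51, 21 and 9, and Cobl 3, at 176, 131 and 92. The windows of Mal and Krt14 hold no copy of these letters, and neither does a second Cobl start in the same table. Over all 32851 promoters of that table, 17.2% hold at least 1 copy in a window of this length. The 4 apical genes shown are not the whole group: of its 26 members 14 were found in the table, with 16 promoters, and 6 of these (37.5%) hold a copy. With under 80% of the members found, a comparison of that share with the 17.2% is void, and it describes these promoters alone. The group was also chosen with earlier results of these data known. A match is only a match of letters, and binding was not measured here. Esrp2 is named without a sequence.

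Junction genes moved the same way with smaller changes. Of 29 tested members 8 rose and 1 fell, 28 lay above 0, and the median log2 change was 0.38. Cldn3, a claudin of tight junctions, stood at 181, 195 and 156 CPM in NSi and 362, 398 and 317 CPM in shDap5. Each shDap5 library was well above all NSi libraries (log2 change 1.02, SE 0.15, edgeR adjusted p = 0.000806). Cldn7, a basolateral claudin, rose from a mean of 43.5 to 96.3 CPM (1.15, SE 0.21, adjusted p = 0.00570). Jup, or plakoglobin, which links cadherins to the cytoskeleton, rose from 99.4 to 188 CPM (0.92, SE 0.15, adjusted p = 0.00239). The desmosomal plakophilins Pkp1 (1.20, SE 0.21, adjusted p = 0.00303) and Pkp3 (0.92, SE 0.18, adjusted p = 0.00740) rose as well. Tjp3 went the other way. This tight junction scaffold, ZO-3, stood at 20, 14.3 and 17.5 CPM in NSi and 2.76, 4.03 and 3.96 CPM in shDap5, or 20.8% of the NSi mean (log2 change -2.27, SE 0.30, edgeR adjusted p = 0.000447). Cdh1, the cadherin of adherens junctions, was at 214, 218 and 178 and 241, 314 and 229.7 CPM and did not pass (0.36, SE 0.27, adjusted p = 0.580). Epcam, an epithelial adhesion molecule, was at 158, 83.9 and 108 and 184, 234 and 234 CPM, without overlap, and missed the threshold (0.90, SE 0.25, adjusted p = 0.0516). It was called by edgeR with the replicate block (adjusted p = 0.0239) and by DESeq2 without a block (adjusted p = 0.0101). Apart from that of DESeq2, the adjusted p values of this paragraph are edgeR's. The count of rises was 5 without NSi 2, NSi 3 or shDap5 2, 6 without shDap5 1, and 14 with the replicate block.

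Keratins, the intermediate filaments of epithelia, had a median log2 change of 0.63, and 4 of 10 tested rose with 0 falling. Krt14, a keratin of basal cells, rose the most of all genes with at least 5 CPM whose arms did not overlap. It stood at 11, 11.8 and 13.9 CPM in NSi and 57.1, 70.5 and 110.2 CPM in shDap5, or 648% of the NSi mean (log2 change 2.70, SE 0.26, edgeR adjusted p = 2.06e-05). The shDap5 libraries spread by nearly a factor of 2, yet all lay far above the narrow NSi range. Krt19, of simple epithelia, was at 121, 143 and 144 and 245, 253 and 270.2 CPM (log2 change 0.91, SE 0.14, edgeR adjusted p = 0.00126). Krt7, the most abundant keratin called, was at 1053, 1034 and 1066 and 1432, 1938 and 1693 CPM (log2 change 0.68, SE 0.18, edgeR adjusted p = 0.0410). Its call was lost without 5 of the 6 libraries in turn, with adjusted p at most 0.165 without shDap5 2, and that of the low-level Krt16 (1.22, SE 0.31, adjusted p = 0.0372) without 4, at most 0.163 without NSi 2. Krt8 was at 383, 307 and 465 and 545, 498 and 663 CPM with no overlap, and passed only with the replicate block (adjusted p = 0.191, and 0.00385 with the block). With the block 7 keratins were called higher, and with 1 library left out 2 or 3. Krt14 made up most of the sums of the 9 basal and myoepithelial markers, which were 18.1 to 22.7 CPM in NSi and 62.9 to 109.5 in shDap5. The other 7 tested members lay below 0 and were not called; with the block Mylk, a myosin kinase of contractile cells, was called lower (-1.01 and adjusted p = 0.0683 without the block, 0.00653 with it). Krt5 had 0 counts in 5 of the 6 libraries. Of 12 tested luminal markers 6 rose and 0 fell (9 and 0 with the block): Cldn3, Cldn7, Krt7 and Krt19, given above, the estrogen receptor Esr1, from 8.80 to 14.8 CPM (0.75, SE 0.19, adjusted p = 0.0359), and the receptor kinase Erbb2, from 46 to 69.9 CPM (0.60, SE 0.15, adjusted p = 0.0359). Each of the last 2 calls was lost without 4 of the 6 libraries in turn, with adjusted p at most 0.149 without NSi 2 and 0.162 without shDap5 2.

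**Figure D2:**
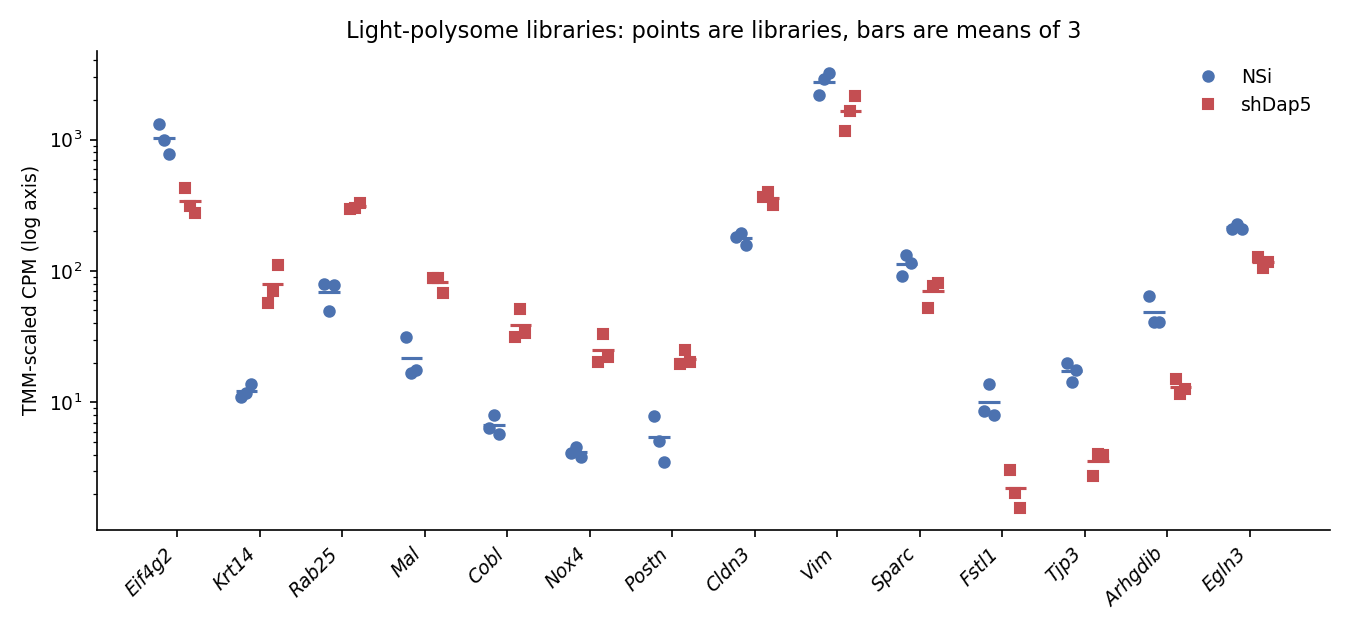
TMM-scaled CPM (log axis) of 14 genes in each light library, with NSi as blue circles, shDap5 as red squares and the mean of 3 as a bar. Eif4g2 lies lower in every shDap5 library, Krt14, Rab25, Mal, Cobl, Nox4, Postn and Cldn3 lie higher, and Fstl1, Tjp3, Arhgdib and Egln3 lie lower.

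Mesenchymal and matricellular genes were mixed. Of 24 tested members 3 fell and 1 rose, and the median log2 change was -0.22. Vim, the intermediate filament vimentin, stood at 2185, 2862 and 3233 CPM in NSi and 1157, 1661 and 2126 CPM in shDap5. The highest shDap5 library, number 3, lay just under the lowest NSi library, number 1, while within each number shDap5 was lower. The call was at the threshold (log2 change -0.74, SE 0.20, edgeR adjusted p = 0.0498), was lost without 4 of the 6 libraries in turn, with adjusted p at most 0.170 without NSi 3, and was firmer with the replicate block (adjusted p = 0.000619). Sparc, a matricellular glycoprotein, was at 92.1, 131 and 116 and 52.3, 76.5 and 81 CPM (log2 change -0.69, SE 0.18, edgeR adjusted p = 0.0451), a call lost without 5 libraries in turn, with adjusted p at most 0.204 without NSi 2. With the replicate block its edgeR adjusted p was 0.00045. Fstl1, a secreted follistatin-like protein, was at 8.52, 13.8 and 8.0 and 3.04, 2.05 and 1.57 CPM (log2 change -2.18, SE 0.32, edgeR adjusted p = 0.00105), and kept its call throughout. Postn, periostin, went against the group: it stood at 7.84, 5.10 and 3.52 CPM in NSi and 19.6, 24.9 and 20.1 CPM in shDap5 (log2 change 1.97, SE 0.42, edgeR adjusted p = 0.0135). That rise was lost without NSi 2 and without NSi 3, with adjusted p at most 0.0660 without NSi 2. Postn also makes up most of the difference in the sum of fibroblast markers, since Pdgfra was at 11.8, 13.6 and 14.8 and 12.5, 13.9 and 13.7 CPM and Col3a1 and Lum had at most 3 counts in a library. Col1a1 went the other way without a call, with 5, 129 and 44 counts in NSi and 14, 14 and 23 in shDap5 (-1.71, edgeR adjusted p = 0.296). Its arms overlapped. Fn1, fibronectin, was at 546, 959 and 472 and 453, 738 and 364 CPM and its arms overlapped (-0.35, SE 0.35, adjusted p = 0.708). With the block 3 members were higher and 4 lower. The number that fell was 1 without NSi 2, NSi 3, shDap5 1 or shDap5 2, and the median of the group ran from -0.315 to 0.00979 with 1 library left out.

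Transcription factors that drive the epithelial to mesenchymal transition gave no call in 17 tested. Their median was 0.08. Twist1 was at 83.1, 82.6 and 82.9 CPM in NSi and 51.7, 46.1 and 61.5 in shDap5 (log2 change -0.64, SE 0.20, edgeR adjusted p = 0.0891), and the inhibitory factor Id2 at 109, 95.5 and 89.5 and 71.3, 66.1 and 58.3 (log2 change -0.59, SE 0.18, edgeR adjusted p = 0.0867). In both the arms did not overlap, and with the replicate block both were called lower (adjusted p = 0.00271 and 0.00232). Snai1 was nearly alike in the arms, at 26.1, 27.9 and 31.6 and 26.4, 28.2 and 33.2 CPM (0.04, SE 0.20, adjusted p = 0.958). Zeb1 was under 1 CPM in all 6 libraries, and so was Snai2, where the arms overlapped only slightly (2.16, SE 0.67, adjusted p = 0.0912; with the block adjusted p = 0.00844). With the block 2 members were called higher and 3 lower.

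Matrix genes changed one by one. Of 30 collagen chains and collagen enzymes 1 rose and 3 fell (median -0.03). P3h4, a partner of the collagen lysyl hydroxylases, was at 1.45, 2.73 and 2.93 CPM in NSi and 8.14, 12.8 and 12.9 CPM in shDap5 (log2 change 2.25, SE 0.32, edgeR adjusted p = 0.000658). P4ha2, a subunit of collagen prolyl hydroxylase, was at 11.8, 15 and 8.80 and 5.41, 5.11 and 3.82 CPM (log2 change -1.31, SE 0.23, edgeR adjusted p = 0.00368), so 2 genes of collagen modification moved in opposite directions, each without overlap. Col5a1 (-1.15, SE 0.29, adjusted p = 0.0340) and Col6a1 (-1.13, SE 0.29, adjusted p = 0.0394), chains of type V and VI collagen, also fell, but were lost without 5 and 4 libraries in turn, with edgeR adjusted p at most 0.124 without NSi 2 and 0.192 without NSi 3. With the block 2 members were higher and 9 lower. Among 30 matrix proteases and inhibitors 4 rose and 2 fell (median -0.03; 5 and 3 with the block). Mmp15, a membrane-anchored matrix metalloprotease, was at 5.48, 5.70 and 4.67 and 14.8, 30.2 and 15.7 CPM (log2 change 1.94, SE 0.36, edgeR adjusted p = 0.00586), with shDap5 2 about 2 times the other two. Adam19, a membrane metalloprotease, was at 25, 38.3 and 37.8 and 15.4, 14.7 and 14.5 CPM (log2 change -1.18, SE 0.20, edgeR adjusted p = 0.00240). Mmp11, or stromelysin-3, and Plau, the urokinase plasminogen activator, rose from 21.4 to 48.2 and 70.5 to 119.7 CPM. Their calls, with that of Adam12 (1.24) and that of the gelatinase Mmp2, which fell (-2.83), were each lost without 4 or 5 libraries in turn. The highest adjusted p were 0.0752 without shDap5 3 for Mmp11, 0.117 without NSi 2 for Plau, 0.160 without NSi 3 for Adam12 and 0.179 without NSi 2 for Mmp2. Of 15 integrins 0 were called, and 3 were higher and 3 lower with the block. Itgb4, of hemidesmosomes, was at 65.4, 65.4 and 72 and 93.1, 121 and 97 CPM, without overlap (edgeR adjusted p = 0.0698, and 0.0147 with the block).

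Secreted signals and their receptors gave few calls in each group. Among 20 angiogenic factors 2 fell and 0 rose (median -0.21; 4 and 2 with the block). Angpt1, which activates the endothelial receptor Tie2, was at 1.32, 1.62 and 0.644 CPM in NSi and 0.0304, 0.184 and 0.102 CPM in shDap5 (log2 change -3.43, SE 0.57, edgeR adjusted p = 0.00233). All 3 shDap5 libraries were close to the limit of detection. Fgf1 fell from 1.12 to 0.320 CPM (-1.82, SE 0.48, adjusted p = 0.0434) and lost its edgeR call without 5 libraries in turn, with adjusted p at most 0.214 without NSi 2. Of 33 genes of TGF-beta and BMP signalling 1 rose and 3 fell (median 0.07; 4 and 8 with the block). Inhbb, the activin B subunit, rose from 1.52, 1.23 and 0.751 CPM to 4.86, 3.95 and 2.94 CPM (log2 change 1.74, SE 0.26, edgeR adjusted p = 0.00111). Its antagonist follistatin, Fst, was at 2.11, 2.94 and 1.93 and 0.972, 0.684 and 0.853 CPM (log2 change -1.47, SE 0.33, edgeR adjusted p = 0.0183), so the ligand rose and the inhibitor fell, both at a few CPM. The co-receptor Tgfbr3 was at 19.1, 31.6 and 34.3 and 11.1, 13.4 and 13.6 CPM (log2 change -1.16, SE 0.27, edgeR adjusted p = 0.0242). The receptor Bmpr1b had at most 2 counts in any shDap5 library, and was at 1.45, 0.420 and 0.322 CPM in NSi. Fst was lost without 3, Tgfbr3 without 5 and Bmpr1b without 4 of the libraries in turn, with adjusted p at most 0.101 without NSi 2, 0.1000 without NSi 2 and 0.0928 without NSi 1. In the Wnt pathway 1 of 29 tested rose and 2 fell (5 and 3 with the block). The ligand Wnt10b fell from 5.02, 5.70 and 7.65 CPM to 1.43, 1.97 and 2.22 CPM (log2 change -1.71, SE 0.33, edgeR adjusted p = 0.00719). The receptor Fzd1 (-1.09, SE 0.27, adjusted p = 0.0328) and the nuclear effector Tcf7l2 (0.53, SE 0.13, adjusted p = 0.0305), in opposite directions, were each lost without 5 libraries in turn, with adjusted p at most 0.130 without shDap5 3 and 0.124 without NSi 2.

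In the EGF receptor family, with 14 tested (2 higher and 2 lower with the block), the rise of Erbb2 given above stood beside a fall of the ligand Nrg1 (-0.68, SE 0.17, adjusted p = 0.0357), lost without 4 libraries in turn with edgeR adjusted p at most 0.191 without NSi 2. Erbb3, the partner of Erbb2, was at 7.81, 13.2 and 10.7 and 15.8, 35.1 and 17.3 CPM, without overlap. It did not pass edgeR without the block (adjusted p = 0.103) and passed with it (adjusted p = 0.00509). DESeq2 without a block also called it (adjusted p = 0.035). Among 27 chemokines, cytokines and receptors 0 rose and 1 fell, while with the block 5 were higher and 1 lower. The fall was that of Ccl2, which attracts monocytes, at 6.47, 8.16 and 5.98 CPM in NSi and 2.13, 1.79 and 1.23 CPM in shDap5 (log2 change -2.0, SE 0.29, edgeR adjusted p = 0.000954). The 5 called higher with the block were the cytokines Il1b (1.53; edgeR adjusted p = 0.107 without and 0.000910 with the block), Lif and Tslp, the chemokine Cx3cl1 and the receptor subunit Il18rap. Cd74, the invariant chain of MHC class II, was the only one of 18 antigen presentation genes to pass (1 higher and 3 lower with the block), at 22.5, 26.9 and 25.7 and 6.47, 10.4 and 9.18 CPM (log2 change -1.53, SE 0.33, edgeR adjusted p = 0.0152), and was lost without 3 libraries in turn, with adjusted p at most 0.0630 without shDap5 1. Of 19 retinoic acid and nuclear receptor genes 1 rose and 1 fell (5 and 2 with the block). Rarb, a retinoic acid receptor whose gene is itself a target of retinoic acid, was at 1.40, 2.49 and 2.07 CPM in NSi and 7.11, 11.1 and 11.1 CPM in shDap5 (log2 change 2.30, SE 0.30, edgeR adjusted p = 0.000408). Cyp26b1, which breaks retinoic acid down, fell from 0.913 to 0.223 CPM (-2.0, SE 0.50, adjusted p = 0.0327) and was lost without 5 libraries in turn, with edgeR adjusted p at most 0.130 without shDap5 3. Csf1r, a growth factor receptor best known from macrophages, rose from 2.36, 1.71 and 1.48 CPM to 4.28, 8.08 and 5.22 CPM (log2 change 1.66, SE 0.27, edgeR adjusted p = 0.00211). The other macrophage markers did not move as one. C1qa, C1qb, C1qc and Tyrobp were at 0 counts in all 6 libraries, and Adgre1 had at most 1 count in each library but NSi 2, with 11. Cd68 and Cd14 were present throughout: in CPM of the library total, Cd68 was at 25.5, 46.2 and 31.9 in NSi and 26.3, 77.0 and 24.7 in shDap5, and Cd14 at 21.7, 20.9 and 23.8 and 24.4, 23 and 29.6. Neither was called with or without the block. Lyz2 and Mrc1, both near or under 1 CPM, were lower in shDap5. Both were called with the block and not by edgeR on all 18 libraries without it. Lyz2 was also called without a block by DESeq2 (adjusted p = 0.0375) and by edgeR on the 6 light libraries alone (adjusted p = 0.0438). The part of such cells in the rise of Csf1r was not tested.

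Stress and metabolic programmes gave few calls. In the hypoxia and glycolysis group 26 of 32 tested lay below 0, the median was -0.18, and 3 fell while 0 rose. Egln3, a prolyl hydroxylase that is both a sensor of oxygen and a target of the hypoxia response, stood at 208, 228 and 207 CPM in NSi and 129, 104 and 117 CPM in shDap5. The NSi libraries were close to each other and far above the shDap5 range (log2 change -0.87, SE 0.18, edgeR adjusted p = 0.00912). The call was lost without NSi 2 and without shDap5 2, with adjusted p at most 0.0558 without NSi 2. Eno2, an enolase, was at 13.6, 20.1 and 16.3 and 7.75, 8.63 and 6.62 CPM (log2 change -1.12, SE 0.21, edgeR adjusted p = 0.00541). P4ha2, given with the collagens, was the third member that fell. With the block 8 were lower and 1 higher. Of 30 genes of the integrated stress response 1 rose and 1 fell (median -0.05; 1 and 4 with the block). Nupr1, a stress-induced chromatin protein, was at 165, 196 and 199.8 CPM in NSi and 396, 496 and 591 CPM in shDap5 (log2 change 1.41, SE 0.26, edgeR adjusted p = 0.00472), while Slc7a11, the cystine transporter, fell from 9.71 to 4.79 CPM (-1.02, SE 0.27, adjusted p = 0.0416) and lost that call without any 1 of the 6 libraries, with adjusted p at most 0.164 without shDap5 3. In the redox and NRF2 group 1 of 28 rose and 2 fell, Slc7a11 among them (4 and 5 with the block). Nox4, an oxidase that makes hydrogen peroxide, rose from 4.08, 4.59 and 3.86 CPM to 20.4, 33.1 and 22.2 CPM (log2 change 2.59, SE 0.25, edgeR adjusted p = 2.06e-05). Nqo1, a quinone reductase, fell from 8.22, 10 and 7.33 CPM to 3.07, 4.03 and 3.48 CPM (log2 change -1.27, SE 0.23, edgeR adjusted p = 0.00484).

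Interferon-stimulated genes had a median of 0.59 with 35 of 37 above 0 and 0 called. Their medians in shDap5 against the NSi library of the same number were -0.075, 1.01 and 0.70, so number 1 did not share the shift. Irf1, a transcription factor of the interferon response, was at 70.5, 74.7 and 70.3 CPM in NSi and 85.3, 139 and 114 CPM in shDap5 (edgeR adjusted p = 0.154, and 0.0151 with the block). With the block 3 members were called higher. Cholesterol synthesis genes had a median of 0.15, against 0.66 in whole lysate, with 0 of 26 called. In the unfolded protein response 0 of 25 were called, and with the block 2 members of each of these groups were higher and 0 lower. S phase genes had a median of -0.16 with 0 of 40 called, and G2 and mitosis genes -0.04 with 0 of 34 called. With the block 1 S phase gene was higher and 3 were lower, and of the G2 and mitosis genes 0 were higher and 3 lower. Among 32 apoptosis regulators 1 rose, Bik, a pro-apoptotic member of the Bcl-2 family at a few CPM (1.18, SE 0.31, adjusted p = 0.0412), and it was lost without any 1 of the 6 libraries, with edgeR adjusted p at most 0.156 without NSi 1. With the block 7 apoptosis regulators were higher and 0 lower, among them Bmf, which was at 13.6, 9.81 and 19.4 and 20.9, 29.9 and 40.9 CPM (adjusted p = 0.166, and 0.00744 with the block).

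Genes of translation itself gave few calls. Of 31 genes of the cap-binding complex, DAP5 and eIF3, Eif4g2 alone passed (3 higher and 2 lower with the block). Next in p-value was Eif4a2, a helicase of that complex, at 229, 221 and 266 CPM in NSi and 332, 331 and 415 CPM in shDap5, without overlap (log2 change 0.59, SE 0.16, edgeR adjusted p = 0.0541; adjusted p = 0.00118 with the block). Among 27 other initiation factors and eIF2 kinases Eif2s3x, the X-linked gene of the gamma subunit of eIF2, rose alone (2 higher and 1 lower with the block). It stood at 14.7, 12.6 and 13.1 and 25.5, 27.2 and 27.5 CPM (log2 change 0.99, SE 0.20, edgeR adjusted p = 0.00958), and the call was lost without NSi 2 (adjusted p = 0.0547). Cytosolic ribosomal protein mRNAs had a median of 0.09 and 0 of 80 called, and 16 elongation factors and other mRNAs with a 5′ terminal oligopyrimidine tract a median of 0.22 and 0 called. With the block 6 of the former and 4 of the latter were higher and none was lower, where 8.63% of all genes were higher and 7.5% lower. Mitochondrial ribosomal proteins (0 of 76), proteasome subunits (0 of 37) and nuclear-encoded respiratory chain genes (0 of 75) had medians of -0.02, -0.06 and -0.01, and with the block at most 5 members of any of the 3 groups were called in a direction. A list of 14 survival and cell cycle mRNAs that have been reported to need DAP5 had a median of -0.0004, the sign of which changes with the scaling, and 0 calls (2 higher and 0 lower with the block). Birc2, or cIAP1, was at 22.9, 22.5 and 24.2 CPM in NSi and 29.5, 30.6 and 34.7 CPM in shDap5, without overlap and higher in shDap5 (log2 change 0.45, SE 0.14, edgeR adjusted p = 0.105; adjusted p = 0.00876 with the block). Myc was at 301, 322 and 321 and 420.4, 392 and 351 CPM, likewise without overlap (0.30, SE 0.18, adjusted p = 0.429).

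**Figure D3:**
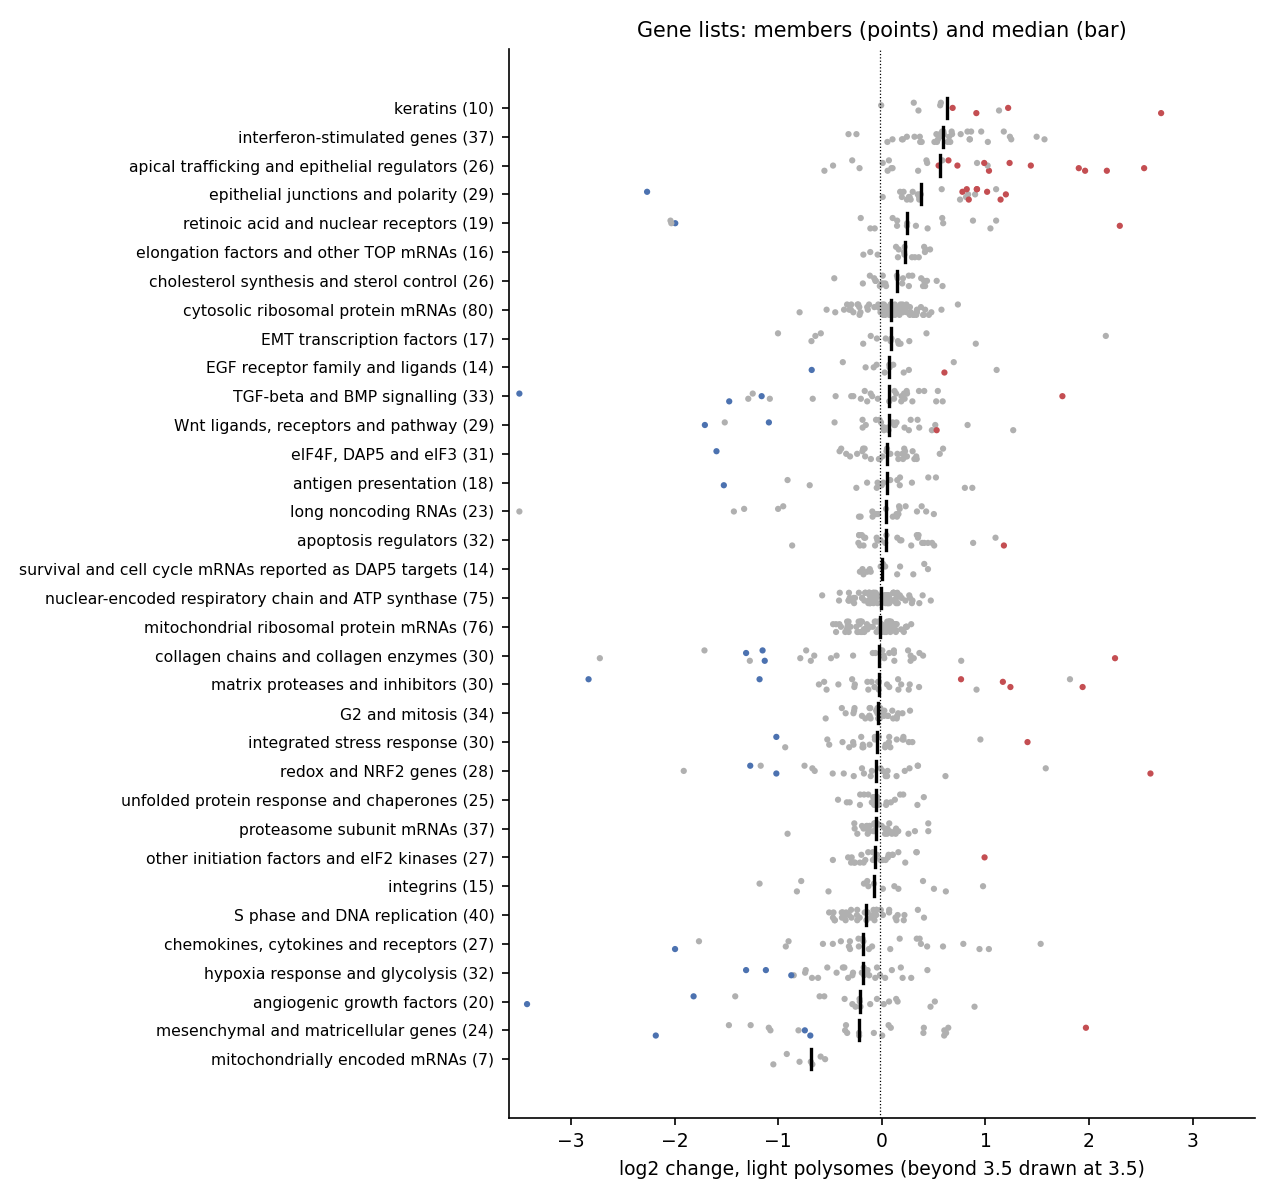
Log2 change in shDap5 against NSi on light polysomes for the tested members of each gene group (points; red called higher, blue called lower, grey not called), with the group's median as a bar, the number tested in brackets and the median of all genes as a dotted line. Keratins, apical genes and junction genes carry most of the red points, interferon-stimulated genes lie to the right without a call, and the 7 mitochondrially encoded mRNAs all lie below 0.

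Other genes among the 15 largest rises and 15 largest falls, taken from called genes with at least 5 CPM and no overlap, are given next. Rises included Prom2, a pentaspan protein of membrane protrusions, from 10.2, 6.66 and 9.47 CPM to 33.8, 44.1 and 41.4 CPM (log2 change 2.18, SE 0.21, edgeR adjusted p = 2.06e-05), and the bicarbonate cotransporter Slc4a4, from 3.56 to 17.2 CPM (2.28, SE 0.33, adjusted p = 0.000806). Plch2, a phospholipase C (2.02), and Slc26a9, an epithelial anion transporter (2.30), rose too, the last of them losing its call without shDap5 3 (edgeR adjusted p = 0.0669). Falls included Arhgdib, an inhibitor of small GTPase cycling, from 64.2, 41.1 and 41.2 CPM to 15.1, 11.6 and 12.6 CPM (log2 change -1.90, SE 0.19, edgeR adjusted p = 2.12e-05). Serpine2, a secreted protease inhibitor, went from 82.5, 61.2 and 82.9 CPM to 25.7, 18 and 29.3 CPM (log2 change -1.64, SE 0.20, edgeR adjusted p = 0.000161), and Podnl1, a leucine-rich repeat protein, from 30.6, 39 and 56.9 CPM to 9.48, 9.39 and 13.7 CPM (log2 change -1.96, SE 0.26, edgeR adjusted p = 0.000447). In all 3 the highest shDap5 library was under the lowest NSi library by a wide margin. Ldhb, a subunit of lactate dehydrogenase (-2.07), Tspan7, a tetraspanin (-2.09), Tmem98, a membrane protein (-2.03), and Hsd17b11, a dehydrogenase of lipid droplets (-1.88), fell to between 23.3 and 27.2% of the NSi mean. The secreted hormone Stc1 (-1.85), the GTPase-activating protein Dlc1 (-1.83), the endocytic adaptor Ston2 (-1.72) and Hhip, which binds and restrains Hedgehog ligands (-1.71), also fell. Ank2, an ankyrin (-1.88), and Gnao1, a G protein subunit (-1.67), fell but lost their calls without 4 libraries in turn, with edgeR adjusted p at most 0.108 without shDap5 3 and 0.138 without NSi 2. Fabp4, a fatty acid carrier known from adipocytes, fell from 4.68 to 1.72 CPM (-1.45, SE 0.33, adjusted p = 0.0214) and was lost without 4 libraries in turn, with adjusted p at most 0.109 without NSi 2; Adipoq and Plin1, defining markers of adipocytes, had at most 2 counts in a library.

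The same arms were compared in whole lysate and on heavy polysomes, where 1047 genes (6.95%; 3.01% higher and 3.94% lower) and 595 genes (3.95%; 2.03% higher and 1.92% lower) were called. Of the 276 that rose on light polysomes 187 also rose in whole lysate (67.8% of the light rises and 41.3% of the rises in lysate), and 180 rose on heavy polysomes (65.2% and 58.8%). Of the 247 that fell, 190 also fell in lysate (76.9% and 32.0%) and 158 on heavy polysomes (64.0% and 54.7%). In each direction 147 genes were called in all 3 fractions, and 56 rises and 46 falls were called on light polysomes and in no other fraction. The median change of the light rises was 0.95 in lysate and 0.99 on heavy polysomes, and that of the light falls -1.57 and -1.34. Whether light polysomes differed from the others was tested gene by gene as an interaction. Relative to whole lysate 0 genes (0%) passed by edgeR (320 at an unadjusted p under 0.05) and 0 by DESeq2. Heavy relative to light also gave 0 (0%) by edgeR (181 at an unadjusted p under 0.05) and 0 by DESeq2. Light and heavy libraries of the same arm and number deviated together (r = 0.511, 0.711 and 0.583 in NSi, 0.763, 0.72 and 0.668 in shDap5). These fits did not pair them. Both numbers at an unadjusted p under 0.05 were smaller than that cut alone would let through by chance. The tests can thus miss differences, and the 0 counts do not show that the fractions are alike. A call on light polysomes without one in another fraction does not show that the fractions differ.

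Eif4g2 itself was at -0.59 in lysate (edgeR adjusted p = 0.202), -1.60 on light and -1.45 on heavy polysomes, with a light relative to lysate term of -1.01, SE 0.36, unadjusted p = 0.0119, edgeR adjusted p = 1.0. Krt14 was at 2.30, 2.70 and 2.33 in lysate, light and heavy polysomes, Rab25 at 2.50, 2.17 and 2.32, and Nox4 at 2.31, 2.59 and 2.71. Among genes that rose on light polysomes, Krt19 was at 0.39 in lysate and 0.50 on heavy polysomes, against 0.91 on light, and was called on light polysomes alone, with a light relative to lysate term of 0.53, SE 0.20, unadjusted p = 0.0150, edgeR adjusted p = 1.0. Ndrg4, a cytoplasmic protein of neurons and heart, had one of the 5 smallest interaction p-values. It stood at 19.8, 23.3 and 19.6 CPM in NSi and 35.2, 38.1 and 30.1 CPM in shDap5 on light polysomes (log2 change 0.72, SE 0.15, edgeR adjusted p = 0.0117; adjusted p 0.0586 without shDap5 2), and at -0.08 in lysate, with a light relative to lysate term of 0.80, SE 0.21, unadjusted p = 0.00132, edgeR adjusted p = 1.0. Dynlt3, a light chain of dynein, had one of the 5 smallest p-values of heavy relative to light. Its light libraries were level, at 223, 212 and 181 and 202, 198 and 214 CPM, and the heavy relative to light term was 0.65, SE 0.17, unadjusted p = 0.00138, edgeR adjusted p = 1.0. None of these interaction terms passed.

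**Figure D4:**
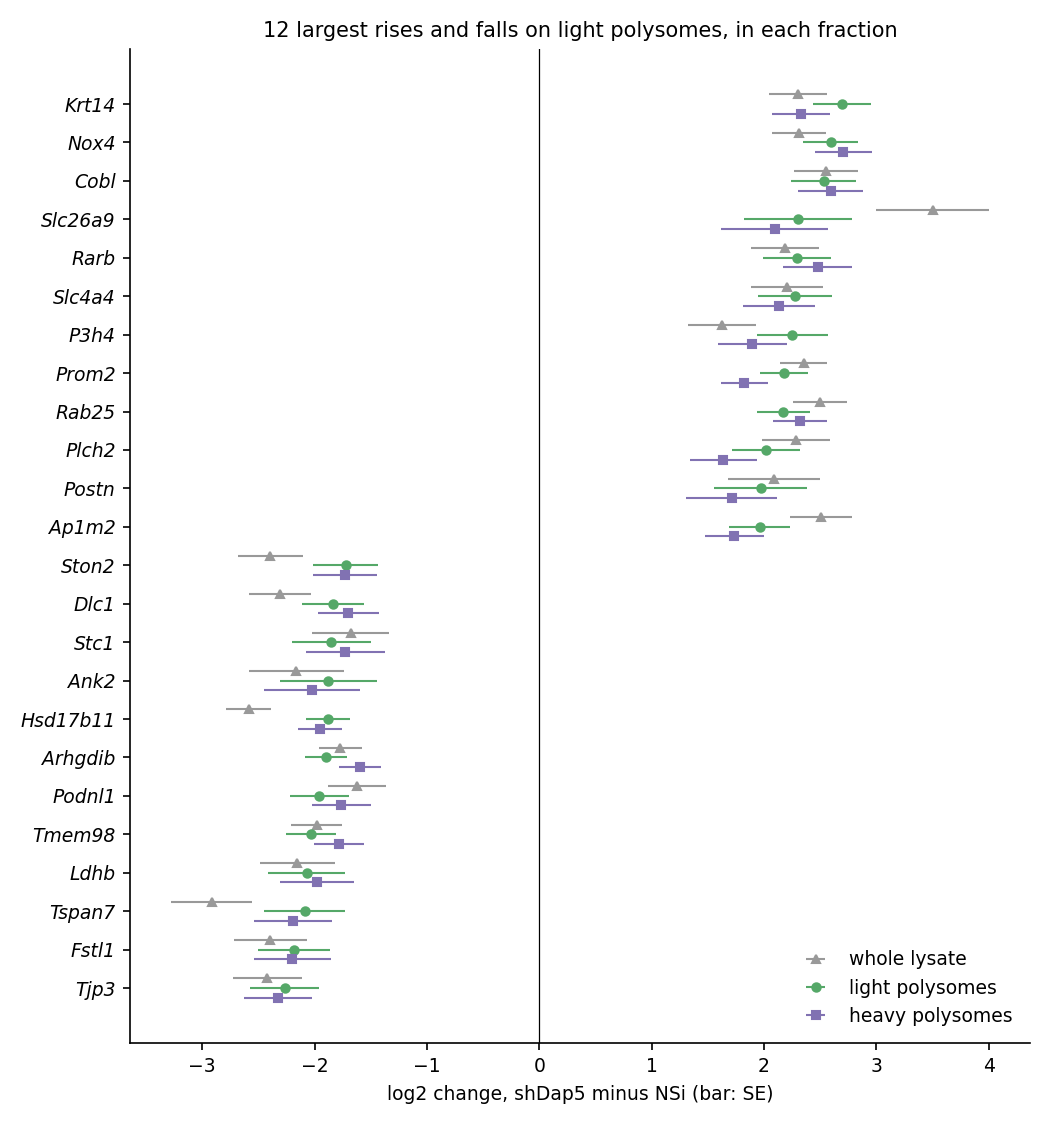
Log2 change in shDap5 against NSi with its standard error (bars) in whole lysate (grey triangles), light polysomes (green circles) and heavy polysomes (purple squares) for the 12 largest rises and 12 largest falls on light polysomes. The 3 fractions lie on the same side of 0 for each of the 24 genes, and Slc26a9 and Tspan7 lie farther from 0 in lysate than on polysomes.

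Mitochondrially encoded mRNAs and the nuclear RNA Malat1 were lower in shDap5 within each number of the light fraction. They passed edgeR on all 18 libraries with the replicate block and not without it. DESeq2 without a block called Malat1 (adjusted p = 0.038) and, at the threshold, the mitochondrial mRNA ND5 (adjusted p = 0.0499). Reads of mitochondrial genes made up 3.54, 1.57 and 3.61% of counts in NSi 1, 2 and 3 and 2.71, 0.955 and 1.53% in shDap5. The 7 mitochondrially encoded mRNAs tested summed to 35455, 14610 and 37470 CPM in NSi and 27078, 9274 and 16111 CPM in shDap5. The arms overlapped, with both libraries of number 2 low, and within each number shDap5 was lower. The median log2 change of the 7 was -0.69, all 7 lay below 0, and 0 were called by edgeR without the block (smallest adjusted p = 0.121, for ND5, a complex I subunit) and 7 with it. In whole lysate their median was 0.23 and on heavy polysomes -0.13. Malat1, a noncoding RNA that stays in the nucleus, was at 59.7, 54.3 and 53 CPM in NSi and 40.4, 22.9 and 20 CPM in shDap5. Its arms did not overlap (log2 change -1.0, SE 0.31, edgeR adjusted p = 0.0868; -1.07 and adjusted p = 0.000781 with the block). Neat1, another nuclear noncoding RNA, was at 108.9, 169 and 158.4 CPM in NSi and 126, 162.3 and 121.6 CPM in shDap5, which overlapped. Among 23 long noncoding RNAs tested 0 were called, and with the block Malat1 alone was. How these RNAs bear on the other changes was not tested.

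**Figure D5:**
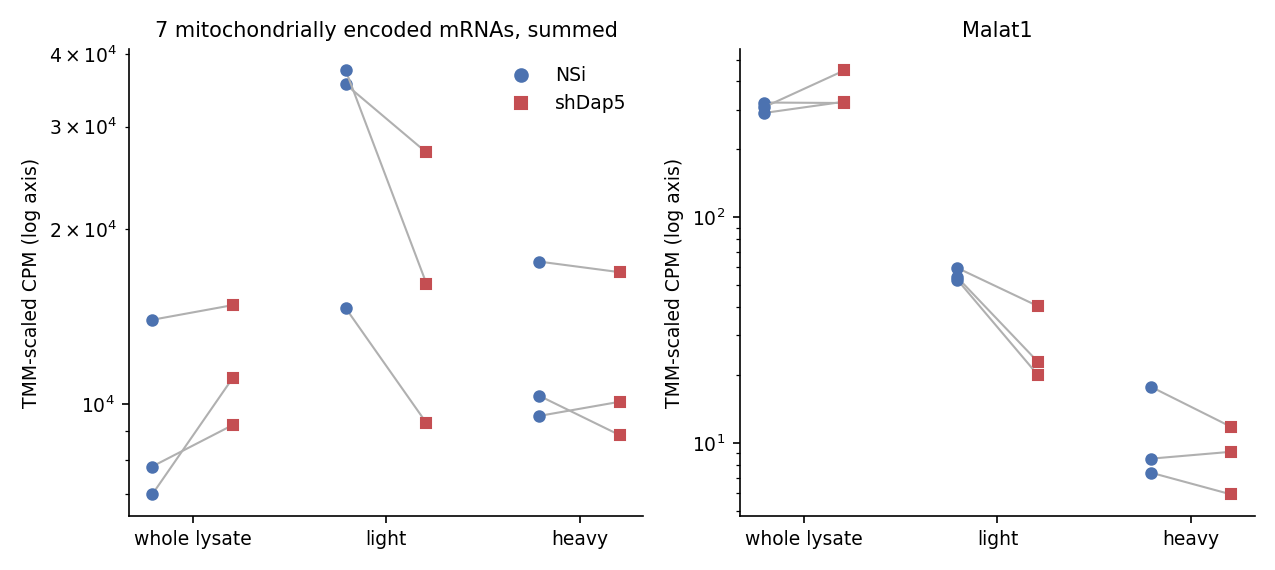
Summed TMM-scaled CPM of the 7 mitochondrially encoded mRNAs (left) and of Malat1 (right), on log axes, in each library of whole lysate, light and heavy polysomes, with NSi as blue circles, shDap5 as red squares and a line between libraries of the same number. On light polysomes every line falls from NSi to shDap5 in both panels, and in whole lysate the lines for the mitochondrial sum rise.

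Coding length and the ratio of heavy polysomes to whole lysate in NSi were compared as descriptions. The ratio comes from the same fit of 18 libraries as the calls. The median coding length was 1605 bases for genes that rose (251 of 276 with a value), 1350 for genes that fell (215 of 247) and 1404 over all genes (12900 of 15072). In 5 bins of coding length with equal numbers of genes, from shortest to longest, 1.04, 1.71, 2.29, 2.67 and 2.02% of genes rose, and 1.5, 1.94, 1.67, 1.47 and 1.75% fell. In control cells the genes that rose were placed toward heavy polysomes by their median: the median log2 ratio of heavy polysomes to whole lysate in NSi was 0.39 for them, -0.07 for the genes that fell and 0.03 over all genes. It was above 0 for 194 of the 276 rises, 114 of the 247 falls and 7764 of all 15072 genes. In the 5 length bins, from shortest to longest, its median was 0.40, 0.43, 0.17, 0.03 and -0.25. The ratios of rises and falls were not adjusted for coding length or level.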

How the data were processed

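Polyadenylated RNA of 18 libraries was sequenced after a stranded library preparation, and the comparison reported here rests on 6 of them. The deposited values are raw read counts for gene symbols, without normalization. Per the submitters' processing notes, alignment used Bowtie and the mm9 build. Versions, counter, annotation, strand setting and the handling of shared reads are not stated, so paralogs, pseudogene families and antisense genes are uncertain. Of 35976 symbols listed, 27 were written as dates and are not named.

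In R 4.3.3, edgeR 4.0.16 fitted all 18 libraries with 1 mean per group (robust quasi-likelihood, TMM, filterByExpr at 10 counts and a total of 15). Residual degrees of freedom were 12 and the common coefficient of variation 0.227. Benjamini-Hochberg adjustment covered 15072 genes, and calls have an adjusted p under 0.05. A standard error (SE) is the size of the log2 change over the root of F. Gene groups are described by counts and medians without a test. The comparison, the gene groups and the alternatives were chosen with earlier results of these data known. Named genes were Eif4g2, the 15 largest rises and falls (called, at least 5 CPM, no overlap of the arms), up to 6 called members of each group or else the 3 with the smallest p-values, a set of fixed genes and the 5 smallest p-values of each interaction. Genes named beyond that rule (Myo5c, Neat1, Mylk, cytokines that were called with the block and did not rise without it, and markers beside a result) were chosen after their values were seen. Among the largest rises 1 gene is not reported here.

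The replicate numbers pair the light libraries, as r between deviations from the group means was 0.555, 0.793 and 0.727 for the same numbers. They did not pair NSi light with NSi whole lysate libraries (r = -0.0521, -0.0553 and -0.322), so the block was set within each fraction. For shDap5 light with shDap5 whole lysate r was 0.458, 0.303 and -0.234. Light and heavy libraries of the same number were paired in both arms (r = 0.511, 0.711 and 0.583 in NSi, 0.763, 0.72 and 0.668 in shDap5). The block within each fraction does not use that link. Alternatives were other scalings and filters, DESeq2 1.42.0, blocks, the 6 light libraries alone and each light library left out. In simulated data with the groups and library sizes of this design (14819 genes), edgeR recovered 40 of 100 genes changed 2-fold and 88 of 99 changed 4-fold, with 3 false calls. The simulated libraries were independent and lacked the deviations that same-numbered libraries share. These rates may therefore not hold for the real libraries. Coding lengths came from GENCODE M21 on GRCm38 in place of the protein lengths first planned. Promoters came from RefSeq (GRCm38.p6), and no coordinates of the deposited build are given. Shares of E-boxes and of pyrimidine-tract starts in called genes are not given: promoters were found for 69.6% of rises, 74.1% of falls and 77.0% of all genes, under the minimum of 80%, which makes that check void.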

Additional observations from a re-analysis of the deposited data

How the results depend on the processing

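The number of genes called on light polysomes was 523. It was 555 with the size factors of DESeq2 in edgeR, 437 with library sizes alone, 453 with upper quartile scaling, 466 without a filter and 385 with a minimum mean of 1 CPM. DESeq2 called 995. The replicate block gave 1013, the replicate block within each fraction 2431, the 6 light libraries alone 219, and these 6 with the replicate block 2628. With 1 light library left out the count ran from 218 to 393. The share of calls that were rises was 52.8%, 46.8 to 56.2% under other scalings, 42% without NSi 1 and 64.6% without shDap5 1. Both interaction counts stayed at 0 in every alternative, though up to 1622 (light relative to lysate) and 863 (heavy relative to light) genes had an unadjusted p under 0.05 with the block within fraction. No alternative paired the fractions by number separately within each arm. No result changed direction while called. The fall of Eif4g2 was called in every alternative, between -1.80 and -1.37. Of the 2613 checks of single named genes under alternatives, 2290 gave the same call, 147 gained one and 176 lost one, and the cause was not tested. Of 624 group medians 41 moved by more than 1 SD between libraries. With 3 libraries per arm, 2-fold changes were recovered less well in the simulation than 4-fold ones, and genes near 0.1 CPM rest on a few counts.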
